A study of Mus musculus with 6 samples.

Results

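The Wnt pathway was followed here through 53 of the 29659 genes in the deposited table, of which 18 encode Wnt ligands, 10 frizzled receptors, 2 LRP co-receptors, 7 R-spondins or their LGR receptors, 8 secreted antagonists (Sfrp and Dkk), 4 β-catenin and its regulators and 4 TCF/LEF factors. Members were taken by a rule on gene symbol and protein-coding biotype. The rule reads no measured value, but it was chosen with earlier results of these data known. RNA came from the lateral ganglionic eminence (LGE), the embryonic ventral forebrain region whose progenitors form the striatal projection neurons, of C57BL/6 mice at embryonic day 16.5. The control group (3 libraries) had the genotype Dlx5/6-Cre. The Zfhx3-CKO group (3 libraries, called mutants below) had the genotype Dlx5/6-Cre; Zfhx3F/F, in which Cre acts on floxed copies of Zfhx3, which encodes a transcription factor with zinc fingers and homeodomains. Both groups thus carried the Cre transgene, whose Dlx5/6 enhancer drives Cre in cells of the ganglionic eminences, though not necessarily in all of them. It does not drive Cre in cells of other origin in the dissected piece. Which cells lost Zfhx3 was not measured. The comparison addresses what the conditional loss of Zfhx3 changes in the LGE.

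Wnt proteins are secreted lipid-modified ligands that bind frizzled receptors. With the co-receptors LRP5 or LRP6, the canonical branch stops the destruction complex (axin, APC, GSK3) from degrading β-catenin, which then enters the nucleus and acts through TCF/LEF factors. R-spondins and LGR receptors raise the amount of frizzled at the cell surface, whereas SFRP proteins bind Wnt and most Dickkopf proteins bind LRP5 and LRP6. In the developing forebrain the pathway is known for dorsal patterning from the cortical hem, for progenitor proliferation and, through Wnt7a and Wnt7b, for the growth of brain vessels.

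Control libraries held 15938590 to 16753355 counts and mutant libraries 18960574 to 20311799. Nothing in the labels says that the libraries came from separate animals, so p-values measure the spread between these libraries only, which may be technical. Zfhx3 itself averaged 123 ± 19.3 CPM (counts scaled to a common library size, SD, n = 3) over the controls and 95.2 ± 6.77 CPM (SD, n = 3) over the mutants. The edgeR quasi-likelihood test put its log2 fold change at -0.37 (SE 0.12, Benjamini-Hochberg adjusted p 0.091), while by exact permutation (two-sided) p was 0.1, which is the floor for 3 against 3 libraries. Since counts are summed over the gene and the deleted exons are not named, they check the labels only in part. Xist had 5 to 9 counts per control library and 55947 to 59631 per mutant library, with 4939 to 5451 against 5 to 8 counts over 4 Y-linked genes, so sex and genotype cannot be told apart in any comparison below. None of the 53 members lies on X or Y (0 of 53). Genes of the ganglionic eminences, which do not single out the LGE, were present. Dlx2 was at 361 to 453 CPM in the controls and 403 to 590.2 CPM in the mutants, and Gad1 at 319 to 346 and 305 to 338 CPM. Of 18 LGE and ganglionic eminence marker genes, Dlx2 and Gad1 among them, 2 rose and 6 fell. Their summed CPM was 5514 to 5917 in the controls and 4968 to 5249.5 in the mutants. Of 8 medial ganglionic eminence genes 3 rose (summed CPM 338 to 382 and 421 to 571), and of 6 tested septal and ventral midline genes 1 rose (35.5 to 43 and 50.3 to 73.8). No gene of these lists was at 0 in all libraries, and their part in the values of Ctnnb1, Lrp5 and Dkk2 was not tested. In bulk tissue, fewer cells of a type and less RNA per cell cannot be told apart.

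In the Zfhx3-CKO LGE, Ctnnb1, Lrp5 and Dkk2 rose and no member fell (adjusted p under 0.05 over all 16551 genes tested). Ctnnb1 encodes β-catenin, Lrp5 a Wnt co-receptor and Dkk2 a Dickkopf protein that binds LRP5 and LRP6. Ctnnb1 rose 1.26-fold, Lrp5 1.28-fold and Dkk2 2.32-fold. Of the 53 members, 35 passed the low-count filter and 18 did not. The 3 called members are 8.57% of the 35 tested, where 7.36% of all genes tested were called in either direction (3.87% were called higher and 3.49% lower), so the share of members called is near that of all genes. For the 0 members called lower by edgeR, 1 (Fzd10) was lower at an unadjusted p under 0.05, and DESeq2 called 1 (Wnt11). In all, 10 of the 35 had an unadjusted p under 0.05, as did 25.6% of all genes tested. DESeq2 called 6 of 53 members higher, where it called 3.44% of 29651 genes higher. edgeR with no low-count filter called 7 of 53 higher, where it called 3.62% of 29659 genes. Both fits include genes that the low-count filter had dropped, so their shares are not like those over 35 members and 16551 genes. Most member changes were small: 24 of the 35 tested (68.6%) had a positive log2 fold change and the median was 0.15, against 50.1% of all genes tested and a median of 0. All 3 mutant libraries lay above all 3 controls for 9 tested members (25.7%, against 15.5% of all genes tested) and below them for 1 (against 15.9%).

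**Figure D1:**
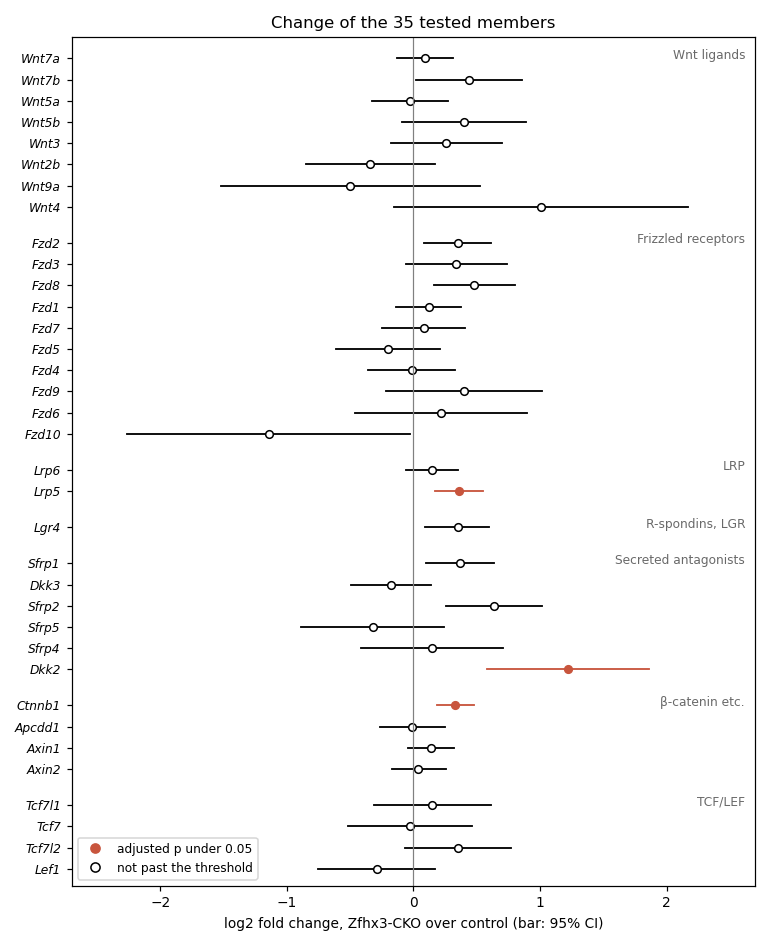
Log2 fold change of the 35 tested members, Zfhx3-CKO over control, grouped by role. Points are edgeR estimates and bars 95% confidence intervals, with filled points for an adjusted p under 0.05. Ctnnb1, Lrp5 and Dkk2 are filled, and most other members lie between -0.5 and 0.5.

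The promoters of Ctnnb1 and Dkk2 are shown because these members rose, and that of Wnt11 because its counts were lower in every mutant library and its window holds a TCF/LEF match. Sequences are from RefSeq (GRCm38.p6), which has a promoter for 34 of the 53 members, and Lrp5 is not among them. Each gives the 250 bases before a start site, 5′ to 3′ on the gene's strand, at chr9:120933150-120933399 (plus strand, Ctnnb1, the upstream of its windows), chr3:132085042-132085291 (plus strand, Dkk2) and chr7:98834862-98835111 (plus strand, Wnt11, the upstream of its windows). Capitals mark a TCF/LEF match.
Ctnnb1: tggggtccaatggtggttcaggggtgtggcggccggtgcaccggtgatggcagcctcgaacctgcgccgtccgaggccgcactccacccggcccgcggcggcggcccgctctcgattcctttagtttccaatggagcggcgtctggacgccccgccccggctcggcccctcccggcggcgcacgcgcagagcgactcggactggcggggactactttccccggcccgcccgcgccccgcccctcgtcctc
Dkk2: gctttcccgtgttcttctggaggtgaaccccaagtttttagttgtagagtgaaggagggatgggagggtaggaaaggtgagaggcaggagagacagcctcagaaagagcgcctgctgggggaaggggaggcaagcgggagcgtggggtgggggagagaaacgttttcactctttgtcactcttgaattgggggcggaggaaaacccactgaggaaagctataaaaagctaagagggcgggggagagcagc
Wnt11: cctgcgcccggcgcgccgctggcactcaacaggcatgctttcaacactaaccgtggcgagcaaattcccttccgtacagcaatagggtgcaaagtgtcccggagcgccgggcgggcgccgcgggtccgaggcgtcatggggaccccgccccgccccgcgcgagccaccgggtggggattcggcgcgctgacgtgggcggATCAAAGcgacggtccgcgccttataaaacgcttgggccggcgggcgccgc
The TCF/LEF motif was searched, on both strands, as the word AACAAAG, the word ATCAAAG, the word TACAAAG or the word TTCAAAG. A homeodomain core was searched as the word TAATTA, which reads the same on both strands. The Wnt11 window holds ATCAAAG on the plus strand, whose last base is 45 bases before the start site. The Ctnnb1 and Dkk2 windows hold neither motif. A TCF/LEF match is present in 14% of 43 member windows and in 14.8% of all 32851 windows of this length, and TAATTA in 2.33% and 4.84%. The Ctnnb1 and Wnt11 windows are rich in G and C (74.8% and 70.8%), with 35 and 37 CpG, whereas that of Dkk2 has 55.6% and 7, and the median of all windows is 52.4% and 6.

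The ligand repertoire of the LGE was dominated by Wnt7a and Wnt7b. Levels of different genes are compared in FPKM (fragments scaled for gene length and library size). Wnt7a was the most abundant ligand, at 18.9 to 24.1 FPKM over the 6 libraries, and made up 56.4 to 63.9% of the summed ligand FPKM. Wnt7b was next, at 4.84 to 9.09 FPKM, followed by Wnt5a (2.22 to 3 FPKM), a ligand best known for the planar polarity branch. Wnt3, the fifth in order, lay at 0.857 to 1.17 FPKM, which overlaps no range of the first 3. Together Wnt7a and Wnt7b held 79.6 to 82.2% of the summed ligand FPKM in every library. Of the 18 ligands, 5 had a mean of at least 1 FPKM and 8 a mean under 0.1 FPKM. Wnt8b, Wnt9b and Wnt2 had no count in any control library and 1 count in the mutant group, and Wnt16 had 1 count in each group. A group with 0 counts still allows up to 3 counts, by counting error only. Wnt2b and Wnt8b are ligands known from the cortical hem. Wnt2b lay at 0.457 to 0.725 FPKM, and Lmx1a, a hem factor, was at 0.343 to 0.898 CPM over the 6 libraries.

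**Figure D2:**
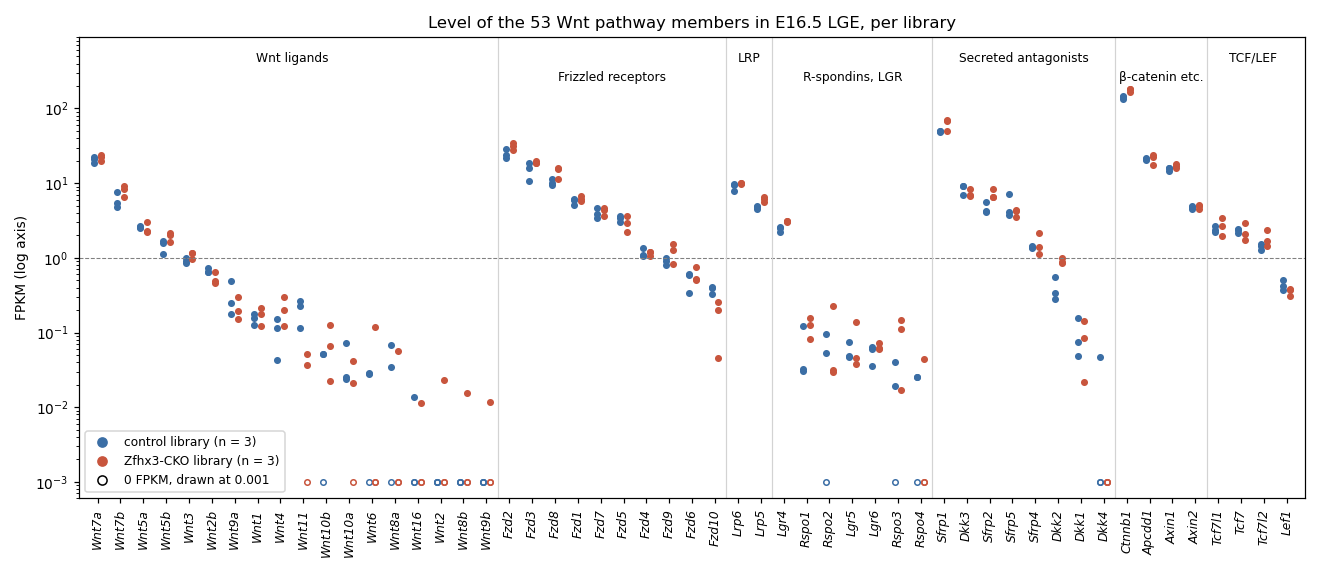
FPKM (log axis) of all 53 members in each of the 6 libraries, grouped by role and ordered by mean level within each role; blue, control; red, Zfhx3-CKO; open circles, 0 FPKM drawn at 0.001; dashed line, 1 FPKM. Ctnnb1, Sfrp1 and Fzd2 are highest, and 10 ligands and 6 of the 7 R-spondin or LGR genes were too low to be tested.

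None of the 8 tested ligands passed edgeR's threshold, 1 (Wnt7b) had an unadjusted p under 0.05 and DESeq2 called 1 (Wnt11, not tested by edgeR). Wnt7a was at 60, 66.3 and 71.6 CPM in control libraries 1, 2 and 3 and at 70.1, 76.7 and 63.6 CPM in mutant libraries 1, 2 and 3. The groups overlapped, and the log2 fold change was 0.09 (95% confidence interval -0.13 to 0.31, adjusted p 0.607). Wnt7b was at 21.4, 23.8 and 33.8 CPM in the controls, against 37, 29.3 and 40.5 CPM in the mutants (log2 fold change 0.44, SE 0.18, adjusted p 0.18). Mutant libraries 1 and 3 lay above every control, and library 2 lay below control library 3. Wnt7b is also a gene of deep-layer cortical neurons. The summed CPM of 16 cortical excitatory neuron and pallial progenitor genes was 250 to 273 in the controls and 483, 337 and 558 in mutant libraries 1, 2 and 3, with 2 of 14 tested genes higher, none at 0 in all libraries, and Neurod2 at 39.1, 9.69 and 69.5 CPM. The part of such cells in the Wnt7b values was not tested. Over its 14 alternatives the log2 fold change of Wnt7b ranged from 0.16 to 0.66. The lowest came with mutant library 2 alone, a fit that holds no spread between mutants, and the highest without control library 3.

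The other tested ligands were Wnt5a, Wnt5b, Wnt3, Wnt2b, Wnt9a and Wnt4, with log2 fold changes between -0.5 (Wnt9a) and 1.01 (Wnt4) and overlapping groups. Wnt4 rests on 21 counts in the controls and 51 in the mutant group (adjusted p 0.251). Wnt5b overlaps Fbxl14 on the opposite strand, and the library kit does not mark strand, so reads of the shared 2963 bases cannot be assigned. Fbxl14 had 2898 counts in the controls and 4064 in the mutant group, against 192 and 303 for Wnt5b. Wnt7b likewise shares 2222 bases with the antisense gene AU022754 (65 and 116 counts).

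Wnt11, a ligand of mainly noncanonical signalling, was singled out after its values were seen. It had 8, 15 and 18 counts in the control libraries and 0, 4 and 3 in the mutants, with no overlap. It missed the low-count filter and so has no edgeR value over the 16551 genes. With no filter, edgeR estimated -2.72 on the log2 scale (SE 0.67, adjusted p 0.0148), where 2.65% of 29659 genes were called lower, and DESeq2 gave -2.78 (adjusted p 0.0302), where 2.55% were. The 7 alternatives that tested it gave adjusted p from 0.0148 to 0.157, and 3 of them called it: these 2 and the fit without mutant library 2. It did not pass without control library 1 (0.102), mutant library 1 (0.111) or mutant library 3 (0.0501), or with mutant library 2 alone (0.157). The other 9 untested ligands had 42 or fewer counts over the 6 libraries, as with Wnt1 at 18 in the controls and 24 in the mutant group.

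Frizzled receptors, which have 7 membrane-spanning segments and an extracellular Wnt-binding domain, were all above the filter (10 of 10). Fzd2 led at 21.8 to 34.8 FPKM, followed by Fzd3 (10.7 to 20.1 FPKM), known for axon tract formation, and Fzd8 (9.51 to 16.2 FPKM). These 3 held 74.6 to 80.8% of the summed frizzled FPKM. None of the 10 passed edgeR's threshold, while 3 had an unadjusted p under 0.05 (Fzd2 and Fzd8 higher, Fzd10 lower) and DESeq2 called 1 (Fzd8, adjusted p 0.0211).

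Fzd8 was at 31.8, 34.2 and 38 CPM in the controls and 52.2, 54.4 and 38.1 CPM in the mutants. Libraries 1 and 2 stood well above the controls, and library 3 at the level of the highest control. The log2 fold change was 0.48 (SE 0.14, adjusted p 0.0754). Fzd2 followed the same order, at 79.8, 87.5 and 105 CPM against 116, 128 and 103 CPM, with overlapping groups (log2 fold change 0.35, SE 0.12, adjusted p 0.105). Without mutant library 3 both passed (log2 fold change 0.62 and 0.43, adjusted p 0.00455 and 0.0374). That fit called 12.5% of all genes tested, against 7.36% with all libraries. Leaving out the mutant library nearest the controls widens the difference by itself, so these passes add no support. With no low-count filter both Fzd8 and Fzd2 passed too (adjusted p 0.0199 and 0.0396). With mutant library 2 alone the log2 fold changes were 0.65 and 0.5. Of 14 alternatives, Fzd8 passed in 4 and Fzd2 in 3, and in others the adjusted p rose to 0.238 and 0.299. The summed CPM of 16 cell cycle and progenitor genes stood in the same order, at 4006 to 4515 in the controls and 5234, 5617 and 4159.9 in mutant libraries 1, 2 and 3, with 3 of the 16 higher and none at 0 in all libraries. This order was not particular to that list. The LGE and ganglionic eminence genes summed to 4986, 5249.5 and 4968 CPM in mutant libraries 1, 2 and 3. The sum of 10 microglia genes was 395, 432 and 272 CPM there and 372 to 550.1 CPM in the controls. Whether any of these lists bears on Fzd2 and Fzd8 was not tested.

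Fzd10 was the tested member with the lowest fold change. It had 18, 21 and 21 counts in the controls (1.08, 1.32 and 1.26 CPM) and 3, 16 and 13 counts in the mutants (0.147, 0.847 and 0.666 CPM). The groups did not overlap, and library 1 was lowest by far, but the difference did not pass (log2 fold change -1.14, SE 0.49, adjusted p 0.186) in edgeR's test or under any of the 12 alternatives that tested it. The remaining frizzled genes (Fzd1, Fzd3, Fzd4, Fzd5, Fzd6, Fzd7 and Fzd9) had overlapping groups and log2 fold changes between -0.2 and 0.4.

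Of the co-receptors, Lrp5 rose, and Lrp6 did not pass. Lrp5 (ENSMUSG00000024913, chromosome 19, 3584828 to 3686564, minus strand, GRCm38) was at 44.3, 47.2 and 48.4 CPM in the controls and 58.7, 64.8 and 55.8 CPM in the mutants. All mutant libraries lay above all controls (46.6 ± 2.11 against 59.7 ± 4.59 CPM, SD, n = 3 each), and the log2 fold change was 0.36 (SE 0.08, adjusted p 0.0382). Lrp6 was the more abundant of the pair per length (7.9 to 10.2 against 4.54 to 6.62 FPKM). It was at 133, 132 and 107 CPM in the controls and 134, 137 and 140.4 CPM in the mutants, with groups that just failed to overlap (log2 fold change 0.15, 95% confidence interval -0.06 to 0.35, adjusted p 0.342). The Lrp5 call was lost without any one of control libraries 1, 2 and 3 or mutant libraries 1 and 2 (adjusted p 0.0639 to 0.151), and on log2(FPKM + 1) (0.0745).

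R-spondins left few counts in these libraries, and Lgr4 was the only one of the 7 R-spondin and LGR genes to be tested. Lgr4, which encodes a receptor for R-spondins, was at 14.8, 12.9 and 15.1 CPM in the controls and 18.1, 17.7 and 18.5 CPM in the mutants. All mutant values lay above all controls, yet the difference did not pass (log2 fold change 0.35, SE 0.11, adjusted p 0.0951). The 4 R-spondin genes had 2 to 8 counts over the controls and 2 to 19 over the mutant libraries. Of the untested genes, 3 were singled out after their values were seen. Rspo3 had 1, 2 and 0 counts in the controls and 7, 1 and 9 in the mutants. Rspo2 had 3, 5 and 0 against 2, 2 and 15, and Lgr5, a Wnt target and stem cell marker in other tissues, 13, 8 and 8 against 8, 9 and 28. All 3 missed the low-count filter, and the groups overlapped.

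**Figure D3:**
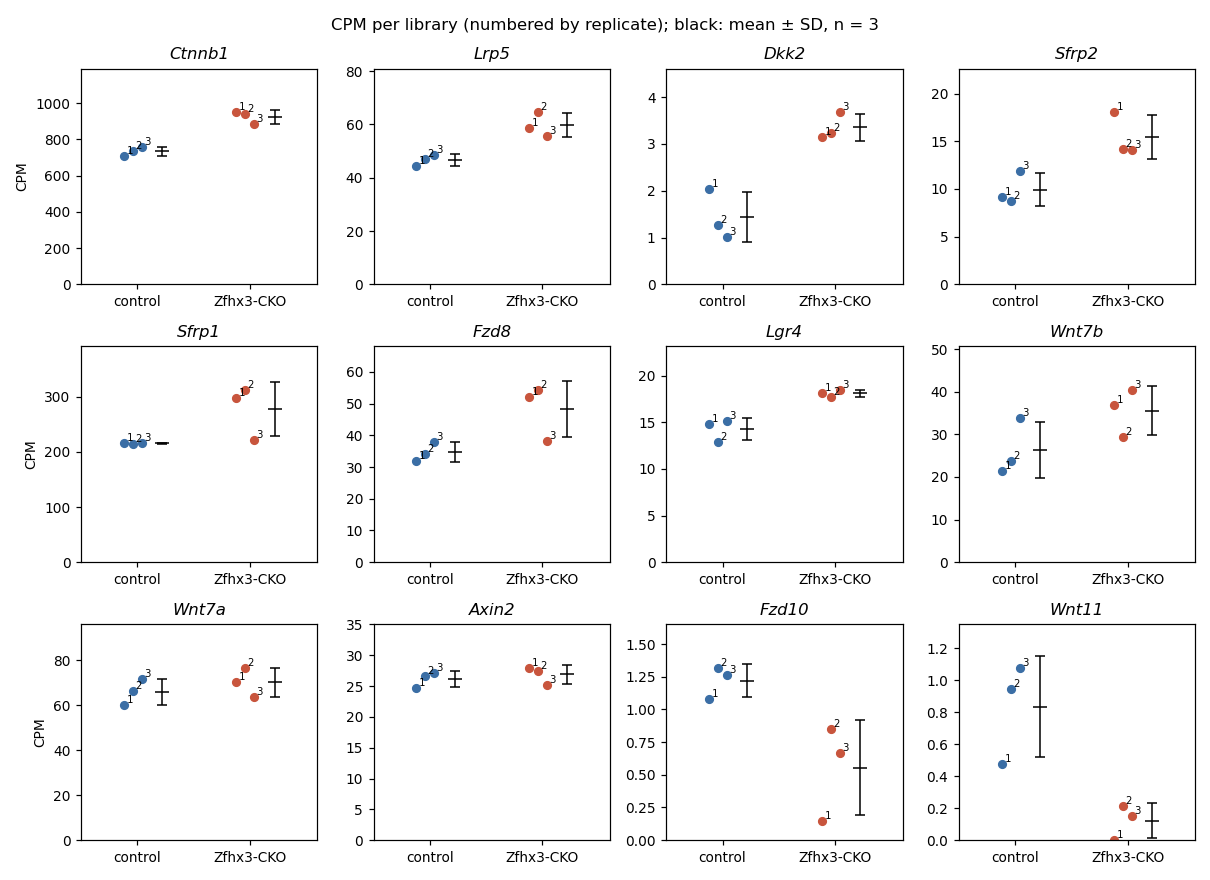
CPM of 12 members in each library, numbered by replicate, with mean ± SD in black (n = 3 per group, axes from 0). Mutant libraries lie above the controls for Ctnnb1, Lrp5, Dkk2, Sfrp2 and Lgr4; for Sfrp1 and Fzd8, mutant library 3 lies next to the controls; Wnt7b, Wnt7a and Axin2 overlap; Fzd10 and Wnt11 are lower at very low levels.

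Among the secreted antagonists Dkk2 rose and the other 5 tested genes did not pass. Dkk2 (ENSMUSG00000028031, chromosome 3, 132085292 to 132180304, plus strand, GRCm38) had 34, 20 and 17 counts in the controls (2.03, 1.26 and 1.02 CPM) and 64, 61 and 72 in the mutants (3.14, 3.23 and 3.69 CPM). The mutant libraries lay close together and above the scattered controls (log2 fold change 1.22, SE 0.28, adjusted p 0.0382). This was the largest fold change of the 35 tested members, at a level that stayed under 1 FPKM in every library (0.277 to 0.987 FPKM). Dkk2 no longer passed without control library 2, control library 3 or mutant library 1 (adjusted p 0.148, 0.1 and 0.0998). It also did not pass with the replicate number as a block (0.114). With mutant library 2 alone the log2 fold change of Dkk2 was 1.16.

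The SFRP antagonists were far more abundant. Sfrp1, at 48.6 to 71.2 FPKM, was second only to Ctnnb1 among the 53 members and held 67.7 to 77.1% of the summed antagonist FPKM. It was at 216, 214 and 216 CPM in the controls and 298, 313 and 222 CPM in the mutants. The controls were nearly identical, libraries 1 and 2 stood far above them, and library 3 just above (log2 fold change 0.37, SE 0.12, adjusted p 0.0956). Sfrp1 is expressed in forebrain progenitors. Its order in the mutants was that of the lists given for Fzd8 (cell cycle and progenitor, ganglionic eminence and microglia genes). Again no link was tested. Without mutant library 3, the mutant library nearest the controls, Sfrp1 passed (log2 fold change 0.51, adjusted p 0.00237), as did 12.5% of all genes tested. Leaving that library out widens the difference by itself, so this pass adds no support. Sfrp1 also passed with DESeq2 (adjusted p 0.0338) and with no low-count filter (0.0222). With mutant library 2 alone, a fit that holds no spread between mutants, the log2 fold change was 0.54. In all, Sfrp1 passed in 4 of 14 alternatives, and in others the adjusted p rose to 0.254.

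Sfrp2, a relative of Sfrp1, was at 9.14, 8.77 and 11.9 CPM in the controls and 18.1, 14.2 and 14.1 CPM in the mutants. Every mutant library lay above every control, and the 1.55-fold difference missed the threshold narrowly (log2 fold change 0.64, SE 0.17, adjusted p 0.0551). It passed with DESeq2 (adjusted p 0.0123), with no low-count filter (0.0222), without mutant library 2 (0.0473) and without mutant library 3 (0.0342). In the rest of its 14 alternatives Sfrp2 did not pass (adjusted p up to 0.199). Dkk3, Sfrp5 and Sfrp4 overlapped between the groups, with log2 fold changes of -0.18, -0.32 and 0.15. Dkk1 had 11 counts in the controls and 12 in the mutant group, and Dkk4 1 and 0.

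Ctnnb1 was the most abundant member and the one with the smallest p. Ctnnb1 (ENSMUSG00000006932, chromosome 9, 120929216 to 120960507, plus strand, GRCm38) was at 707, 734 and 759 CPM in the controls and 952, 937 and 882 CPM in the mutants. The means were 733 ± 26.4 and 924 ± 36.7 CPM (SD, n = 3 each), with no overlap, and the log2 fold change was 0.33 (SE 0.06, 95% confidence interval 0.19 to 0.48, adjusted p 0.0189). Over its 14 alternatives the log2 fold change ranged from 0.31 to 0.37, and 10 kept the call. Ctnnb1 no longer passed without control library 1, control library 2 or mutant library 1 (adjusted p 0.102, 0.0936 and 0.0885) and under the replicate block (0.1). β-catenin also serves at cell adhesion junctions, and its activity is set largely by protein stability, which these counts do not measure. Ctnnb1 shares 5157 bases with Ulk4 on the opposite strand, which had 382 and 525 counts against 36138 and 54323.

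None of the other 3 genes of this role passed edgeR's threshold or had an unadjusted p under 0.05. Axin2, a widely used readout of canonical signalling and a negative regulator of it, was at 24.7, 26.6 and 27.2 CPM in the controls and 28, 27.5 and 25.2 CPM in the mutants. The groups overlapped (log2 fold change 0.04, 95% confidence interval -0.17 to 0.26, adjusted p 0.826), so the interval allows a rise of at most 0.26 on the log2 scale. Apcdd1, a membrane-bound Wnt inhibitor, averaged 59.4 ± 1.42 and 59.1 ± 9.23 CPM in controls and mutants (SD, n = 3 each, log2 fold change -0.01, adjusted p 0.979). Axin1, the constitutive scaffold of the destruction complex, was at 56.1 to 62.3 CPM in the controls and 62.4 to 70.4 CPM in the mutants (log2 fold change 0.14, adjusted p 0.289).

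None of the 4 TCF/LEF genes passed in edgeR's test, none had an unadjusted p under 0.05 and DESeq2 called 0 of 4. Tcf7l1, mostly a repressor, had the highest level of the 4 (1.97 to 3.39 FPKM). It was at 9.38, 8.77 and 10.4 CPM in the controls and 10.6, 13.3 and 7.79 CPM in the mutants, which enclosed the control range. Tcf7l2, abundant in thalamus, was at 12.7, 11.4 and 13.3 CPM in the controls and 20.3, 12.6 and 14.7 CPM in the mutants. Mutant libraries 1 and 3 lay above the controls, library 1 by far the most (log2 fold change 0.35, SE 0.18, adjusted p 0.268). The summed CPM of 8 thalamic and other diencephalic genes was 71.9 to 73.2 in the controls and 61.5, 60.3 and 71.2 in mutant libraries 1, 2 and 3, and the part of such cells in the Tcf7l2 values was not tested. Lef1, itself a Wnt target, was at 3.7, 3.28 and 4.37 CPM in the controls and 3.23, 3.34 and 2.72 CPM in the mutants (log2 fold change -0.29, 95% confidence interval -0.75 to 0.17, adjusted p 0.4). Tcf7 had a log2 fold change of -0.03.

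**Figure D4:**
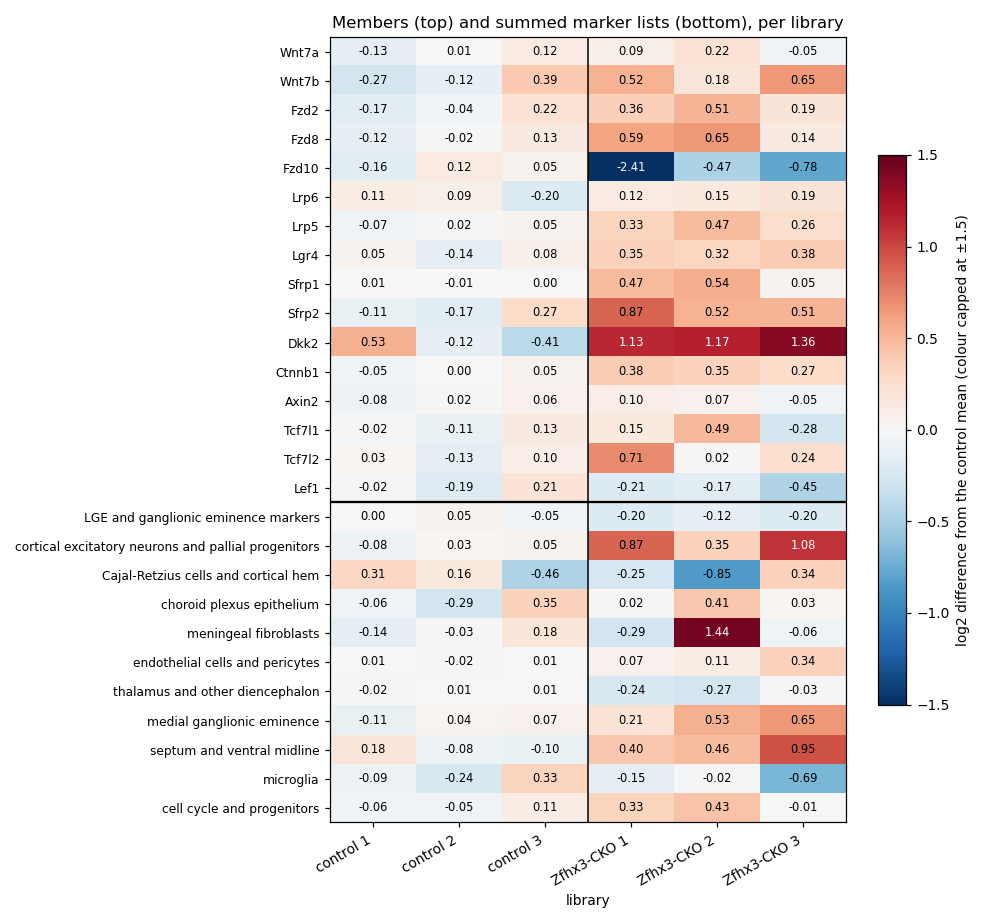
Log2 difference from the control mean in each library for 16 tested members (top) and for summed CPM of 11 marker lists (bottom); 0.1 CPM was added before the log, and colours are capped at ±1.5. Ctnnb1, Lrp5, Lgr4 and Dkk2 are above the controls in every mutant library. Sfrp1 and Fzd8 are lower in mutant library 3 than in the other mutant libraries, as are the cell cycle and microglia lists.

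The wider pathway was read from 99 further genes, of which 92 were tested. Of these 6 rose and 2 fell (8.7%, against 7.36% of all genes tested), with a median log2 fold change of 0.04. None of the 5 genes of secretion and processing of Wnt ligands and none of 8 tested further antagonists passed edgeR's threshold (smallest adjusted p 0.0718 for Tmed5, a cargo receptor, with a log2 fold change of -0.33, and 0.547 for Kremen1, with 0.13). Of 11 receptor and co-receptor genes, Mest, an imprinted gene linked to LRP6 maturation, rose from 158 ± 10.5 to 229 ± 16.6 CPM (SD, n = 3 each, log2 fold change 0.53, adjusted p 0.00765).

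Of 25 tested genes of the destruction complex and cytoplasmic transducers, 2 rose and 1 fell. Dvl1, a dishevelled gene that relays the signal from frizzled, rose from 123 ± 1.82 to 148 ± 3.39 CPM, a log2 fold change of 0.27 (adjusted p 0.0324). Dact3, an antagonist of dishevelled, rose from 24.1 ± 4 to 37.6 ± 5.76 CPM, a log2 fold change of 0.64 (adjusted p 0.04). Siah1a, a ubiquitin ligase that can degrade β-catenin, fell from 55.1 ± 2.06 to 43 ± 2.77 CPM, a log2 fold change of -0.36 (adjusted p 0.0324). Of 17 nuclear co-factors, Ctbp2, a transcriptional co-repressor, rose from 48.9 ± 2.11 to 65.7 ± 3.78 CPM, a log2 fold change of 0.43 (adjusted p 0.0151).

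In the planar cell polarity branch, 1 of 16 genes rose and 1 fell. Celsr1, an atypical cadherin of the polarity complex, rose from 53.4 ± 14.1 to 93.6 ± 10.6 CPM, a log2 fold change of 0.81 (adjusted p 0.0285). Daam1, a formin that links dishevelled to the cytoskeleton, fell from 183 ± 8.25 to 142 ± 13.8 CPM, a log2 fold change of -0.36 (adjusted p 0.0368). Of 15 tested transcripts often used as readouts of Wnt/β-catenin signalling, Ccnd1 rose and 14 did not pass. Ccnd1, a cyclin gene with many other inputs, rose from 48.2 ± 4.9 to 67.7 ± 1.72 CPM, a log2 fold change of 0.49 (adjusted p 0.0142). Sp5, a direct target in many tissues, was at 1.37, 1.2 and 1.5 CPM in the controls and 2.25, 2.38 and 2.67 CPM in the mutants, with no overlap (log2 fold change 0.84, adjusted p 0.0596). Nkd1 (log2 fold change -0.03), Notum (0.2) and Rnf43 (-0.22), feedback inhibitors like Axin2, had overlapping groups, while Znrf3 and Myc were lower in every mutant library, without passing (-0.4 and -0.42, adjusted p 0.0931 and 0.118). Of the 8 called genes, all but Mest lost the call without control library 1, and the number of genes called was 1 to 15 when single libraries were left out.

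The authors' deposited table gives an adjusted p for 32 of the 53 members, and 6 of them have one under 0.05: Ctnnb1 (0.00054), Dkk2 (0.0107), Sfrp2 (0.0109), Lrp5 (0.0119), Fzd8 (0.0189) and Sfrp1 (0.0315). In the authors' deposited table the log2 fold changes of these 6 are all positive, and 0 of the 53 members are marked significant. Over all genes, the authors' deposited table has 1729 with an adjusted p under 0.05 and 122 marked significant.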

How the data were processed

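RNA-seq counts of LGE at embryonic day 16.5 were analysed for 3 control and 3 mutant libraries. Per the labels, TruSeq RNA libraries were built from total RNA, a chemistry without strand information. Tools listed in the submitters' processing notes, with no role or order, are HISAT2, StringTie, edgeR and bcl2fastq (version 2.17.1.14), and the builds listed are mm10 and GRCm38.p4. The deposited counts are whole numbers per gene with no normalisation, per the file headers. The deposited FPKM values were scaled by the authors for gene length and library total, per the file headers. The deposited log2 fold changes and p-values are the authors' own, by a test the file headers do not name. The full table names its columns in short form. A second table of 3726 genes names them by sample title, and its counts and FPKM equal those of the full table.

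The test was edgeR's quasi-likelihood test (edgeR 4.0.16, R 4.3.3) on the counts with TMM factors, filterByExpr at its minimum count of 10 (keeping 16551 genes and dropping 13108), group as the sole term, and Benjamini-Hochberg adjustment over all genes tested at 0.05. CPM values are counts over the library total of kept genes times its TMM factor, errors are SD over 3 libraries, and the SE of a log2 fold change comes from the quasi-likelihood F statistic. Libraries of a group differed by more than sampling noise, with a chi-square per gene of 3.35 to 9.65 between controls and 12.7 to 29.3 between mutants. Pairs of a control and a mutant library gave 27.1 to 37.4, so mutant libraries 2 and 3 (29.3) differed about as much as such pairs. On simulated data for this comparison, with 16568 genes tested, the test recovered 18 of 50 genes changed 1.5-fold and 38 of 50 changed 2-fold, with 16 false calls. Genes were simulated independently, with no deviation shared by the genes of a library. These counts may therefore not hold for the real libraries.

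The members and gene lists were chosen with earlier results of these data known. Values by library are given for members that passed, for the most abundant member and that with the smallest p of each role, for Axin2, Lef1, Ctnnb1 and Tcf7l2, and for tested members with at least 1.5-fold change and no overlap. Of further pathway genes, those that passed and the smallest p of each list were named; Sp5, Nkd1, Notum, Rnf43, Znrf3, Myc, Wnt11, Wnt6, Rspo2, Rspo3 and Lgr5 were added after their values were seen. No rule fixed which marker genes are named singly (Dlx2, Gad1, Lmx1a, Neurod2, Reln, Lhx5 and Col1a1). Overlapping genes are from GENCODE vM21 (GRCm38). Alternatives were a replicate block, DESeq2 1.42.0, RLE factors, library totals only, no filter, a filter of 5 CPM in 3 libraries, limma-trend (limma 3.58.1) on log2(FPKM + 1), keeping genes with 1 FPKM or more in 3 libraries, each library left out in turn, and mutant library 2 alone.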

Additional observations from a re-analysis of the deposited data

How the results depend on the processing

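All log2 fold changes of Ctnnb1, Lrp5 and Dkk2 stayed positive under every alternative that tested them. The 3 members called higher (and 0 lower) became 6 and 1 with DESeq2, 7 and 1 with no low-count filter, 1 and 0 with limma-trend on log2(FPKM + 1), and 5 and 0 with mutant library 2 alone, where the lone library is assumed to vary like the controls. Leaving out single libraries gave 0 to 7 higher and 0 to 1 lower members, with 0 higher without control library 2 or mutant library 1 (6 and 8 at an unadjusted p under 0.05) and 7 without mutant library 3. The other pathway genes called (6 higher, 2 lower) were 10 and 2 with DESeq2, and 1 to 10 and 0 to 5 without single libraries. Over all genes, 640 higher and 578 lower calls became 1021 higher with DESeq2 and 1075 higher with no filter, and ranged from 156 to 1082 higher and 131 to 1014 lower without single libraries. The log2 fold change of Zfhx3 was -0.36 and past the threshold with DESeq2 (adjusted p 0.0489) and with no filter (0.0308), and -0.5 without control library 3 (adjusted p 0.0259), within a range of -0.5 to -0.29 without single libraries. RLE factors and library totals only left the 3 called members the same, and the filter of 5 CPM, which removes Dkk2, left 2. The cause of these differences was not tested.

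With the replicate number as a block, 176 genes were higher and 136 lower, with 0 members and 0 other pathway genes called (edgeR), against 9 members higher and 1 lower, and 16 and 7 other pathway genes, at an unadjusted p under 0.05. Libraries with the same number did not deviate together (correlations of -0.05, -0.09 and -0.29), so no pairing by number was seen. With 3 libraries per group these correlations cannot exclude one. Counts limit what can be said of the 18 untested members, which had at most 74 counts over the 6 libraries.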

Other observations

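The summed CPM of 11 choroid plexus genes was 10 to 15.7 in the controls and 12.5 to 16.4 in the mutants. That of 10 Cajal-Retzius and hem genes was 69.4 to 119 and 53.1 to 121 CPM, with overlapping groups, and a median log2 fold change of 0.59 over its 5 tested genes. Most of that sum was Reln (56.5 to 101 and 39.8 to 101 CPM). Lhx5 had 0, 1 and 0 counts in the controls and 8, 8 and 14 in the mutants. Of the 5 tested genes of this list, 0 passed. Meningeal fibroblast genes (12) summed to 29.6 to 36.9 CPM in the controls and to 26.7, 88.8 and 31.2 CPM in mutant libraries 1, 2 and 3, with Col1a1 at 13.5 CPM in library 2. All 5 mutant counts of Wnt6 were in mutant library 2, and the controls had 0, 1 and 1. The summed CPM of 17 endothelial and pericyte genes was 481 to 490.3 in the controls and 512, 526 and 617 in the mutants. Of these genes 0 passed, and their median log2 fold change was 0.2. Endothelial cells respond to Wnt7a and Wnt7b, and a link to these ligands was not tested.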
